A study of Mus musculus with 4 samples.

Results

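The 9 genes described here act in TGF-beta signalling: the ligands Tgfb1, Tgfb2 and Tgfb3, the receptors Tgfbr1 and Tgfbr2, the latent TGF-beta binding proteins Ltbp1 and Ltbp2, the TGF-beta-induced matrix protein Tgfbi, and Inhba, which encodes an activin subunit. They were chosen by name, 9 of the 24783 genes of the deposited count matrix, and each had between 797 and 25081 UMIs (unique molecular identifiers, which count captured RNA molecules) in every library. The study profiled single cells from retina and choroid of wild-type mice in 4 libraries, 1 per group. Young mice (6 to 8 weeks) and aged mice (over 18 months) either had no lesions (young control, aged control) or were taken 3 days after laser burns had been placed to induce choroidal neovascularisation (young CNV, aged CNV; 532 nm, 200 mW, 0.15 s, 100 μm). In all 4 groups papain-digested retina, from which CD73-positive cells had been depleted on beads to remove rods, was mixed with digested choroid and sclera, so the share of each cell type also depends on the mixing, and the number of mice behind a library is not given in the sources used here.

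With 1 library per group there is no test between groups, and no value below has a replicate check. A level is given in CPM, the UMIs of a gene scaled to 1000000 UMIs of the same cell class in the same library, and 4 levels in a row follow the order control then CNV for the young mice, followed by the same pair for the aged. Intervals in brackets are exact 95% intervals (Poisson for a level, conditional binomial for a ratio) and cover counting error only. A ratio of CPM of at least 2, or of at most 0.5, between 2 libraries is called past 2-fold where the 2 libraries together hold at least 20 UMIs of the gene and the class has at least 50 cells in each. Levels of different genes are not compared, because UMI counts were not scaled per length.

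TGF-beta ligands are secreted in a latent form, held to the extracellular matrix by latent TGF-beta binding proteins, and signal after release through a type II receptor (Tgfbr2) that recruits and phosphorylates a type I receptor (Tgfbr1), which then activates SMAD transcription factors. In the eye the pathway is known for its part in retinal vessel and microglial homeostasis, in the extracellular matrix of the outflow tissue and sclera, and in the fibrotic phase of neovascular lesions. Activins, dimers of inhibin beta subunits such as the product of Inhba, use other receptors of the same superfamily.

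The libraries held 6676 to 11427 cells and 50848238 to 111908519 UMIs, and the young control library was the shallowest per cell, with a median of 2593 UMIs against 6427.5 to 7223 in the other 3. Clustering without the 9 genes and naming by markers gave 22 cell classes, called "-like" since the names were rebuilt here. In fibroblast-like cells the summed level of 8 fibroblast markers was 33000, 40700, 14600 and 18100 CPM, against 45.4, 236, 85.7 and 133 CPM for 10 macrophage and monocyte markers. Any 2 libraries shared 14 to 29 cell barcodes, at most 0.359% of the smaller library. Free RNA in the droplets can give a class a low level of a gene that another class expresses strongly, so a value under 0.1 of the highest class in the same library is marked as within the free-RNA range.

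The upstream windows of Tgfbr1, Tgfbr2 and Tgfbi are shown because of their levels in the microglia-like class described below, of 13 to 38 cells per library. Both receptors differed between control and CNV libraries at both ages. Tgfbi differed in the aged pair, while its young ratio had an interval of 0.836 to 13.6. Each window is the 250 bases 5′ of the first RefSeq start of the gene (GRCm38.p6, the mm10 assembly), written in the direction of the gene. The Tgfbr1 window lies at chr4:47352972-47353221 on the plus strand, the Tgfbr2 window at chr9:116175364-116175613 on the minus strand and the Tgfbi window at chr13:56609336-56609585 on the plus strand. Capitals mark 4 motifs searched on both strands: the AP-1 site TGANTCA, the SMAD box CAGACA, the GC box GGGCGG and the ETS core GAGGAA.
Tgfbr1: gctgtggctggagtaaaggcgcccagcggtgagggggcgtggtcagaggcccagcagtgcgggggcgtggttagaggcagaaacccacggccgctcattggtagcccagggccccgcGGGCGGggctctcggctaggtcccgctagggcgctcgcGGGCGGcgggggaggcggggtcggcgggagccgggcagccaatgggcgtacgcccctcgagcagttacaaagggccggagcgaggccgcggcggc
Tgfbr2: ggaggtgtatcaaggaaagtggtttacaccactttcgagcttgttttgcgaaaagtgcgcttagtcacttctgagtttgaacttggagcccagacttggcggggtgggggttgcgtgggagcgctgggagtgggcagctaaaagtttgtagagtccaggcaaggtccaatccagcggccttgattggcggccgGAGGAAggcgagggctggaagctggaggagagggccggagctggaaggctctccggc
Tgfbi: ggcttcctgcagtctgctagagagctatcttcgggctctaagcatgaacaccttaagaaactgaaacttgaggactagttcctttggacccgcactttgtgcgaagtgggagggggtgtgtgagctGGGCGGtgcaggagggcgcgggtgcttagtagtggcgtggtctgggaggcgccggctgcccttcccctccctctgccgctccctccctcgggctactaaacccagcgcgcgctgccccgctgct

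The first Tgfbr1 window held 2 GC boxes, the Tgfbr2 window 1 ETS core and the Tgfbi window 1 GC box. RefSeq windows were found for 8 of the 9 genes, all but Tgfb3, and none of them held the AP-1 letters, which stood in 6.75% of 32851 mouse windows of the same length. A SMAD box, found in 17.1% of those windows, stood once in the Tgfb2 window, once in a second Tgfbr1 window, and 2 stood in a second Ltbp1 window. The GC box was in 32.7% and the ETS core in 23.3% of all windows, and the Tgfb1 window held 5 GC boxes. These matches describe letters in a window and no binding was measured.

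**Figure D1:**
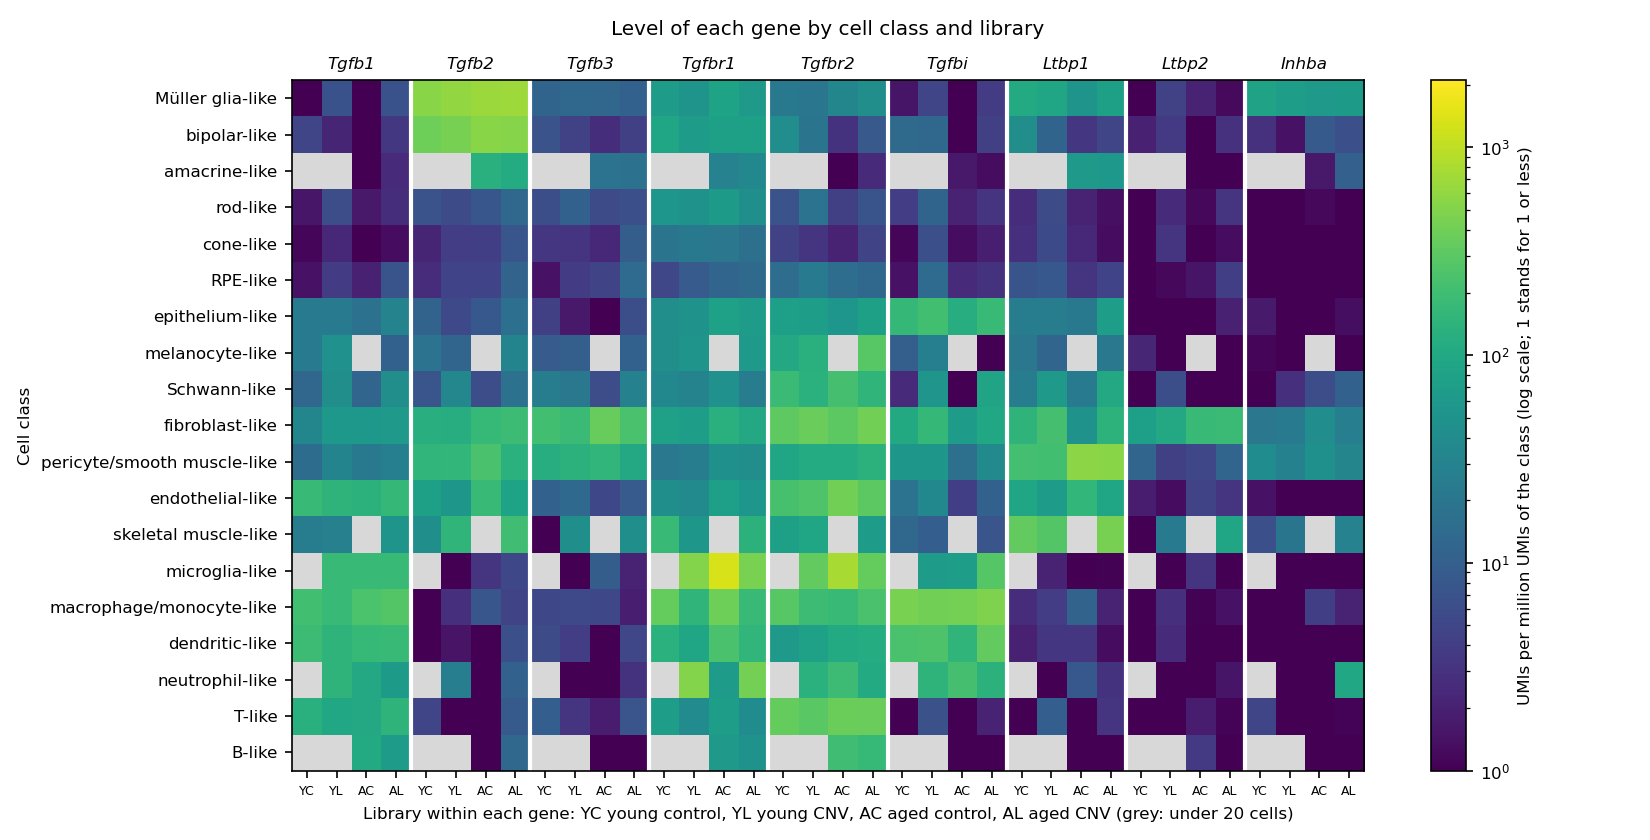
Level of each of the 9 genes in 19 cell classes and 4 libraries, in CPM of the class on a log colour scale; grey cells stand for classes under 20 cells. Colours compare classes and libraries within a gene, such as Tgfb2 in Müller glia-like cells at 546 to 692 CPM in every library and Ltbp2 at 74.4 to 184 CPM in fibroblast-like cells with all retinal classes below 5 CPM.

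Tgfb1 (chr7:25687002-25705077, plus strand) encodes the ligand most associated with immune regulation and fibrosis, and here its level was highest in leukocyte and endothelial classes. Macrophage/monocyte-like cells held 208, 180, 241 and 269 CPM, dendritic-like cells 189, 145, 170 and 180 CPM, and endothelial-like cells 173, 145, 137 and 165 CPM. No pair of libraries differed past 2-fold in these 3 classes, and their ranges overlapped. Fibroblast-like cells were lower, at 33.2, 58.7, 58.9 and 63.3 CPM, with the young control library the lowest. Fibroblast-like cells held 23.3% to 35.1% of all Tgfb1 UMIs of a library, beside 11.8% to 33.0% in macrophage/monocyte-like and 14.7% to 39.5% in endothelial-like cells. Neurons and pigment epithelium held almost none: rod-like, cone-like, bipolar-like and RPE-like (retinal pigment epithelium) cells stayed at or below 7.23 CPM.

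The fibroblast-like class was made of 5 clusters that held the ligands at different levels, so the class is described by cluster. Cluster 5, led by Chil1, Myoc and Timp1, is where Tgfb1 differed most: 51.0, 145, 80.0 and 100 CPM. Its young CNV level was 2.84 times (2.48 to 3.27) that of the young control, from 239 and 1683 UMIs. In the young CNV library 307 of its 560 cells held a Tgfb1 UMI, against 128 of 378 in the control. These counts of cells were not scaled for the UMIs per cell. Scaled to 10000 UMIs, the mean cell held 0.422 in the young control and 0.949 in the young CNV library. The aged pair stayed within 2-fold. A list of 10 macrophage and monocyte markers in cluster 5 summed to 43.1, 235, 90.0 and 134 CPM, also highest in the young CNV library, and 1 cell of the young CNV library carried 66 Tgfb1 UMIs. With the top cell of each library left out the ratio was 2.87, and the part of the marker RNA in the difference was not tested. The other 4 clusters held Tgfb1 at 20.5 to 55.4 CPM in every library.

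Tgfb2 (chr1:186622787-186709697, minus strand) encodes the ligand known as the main TGF-beta of the ocular fluids and neural retina. In Müller glia-like cells, the radial glia of the retina, its level was 546, 604, 658 and 692 CPM. Bipolar-like interneurons held 384, 436, 534 and 528 CPM. These classes were the highest of the named classes in all 4 libraries, and no laser or age ratio in either passed 2-fold. The other levels were lower: pericyte/smooth muscle-like 154, 159, 231 and 132 CPM, fibroblast-like 123, 116, 168 and 187 CPM, and amacrine-like, with enough cells only in the aged libraries, 127 and 112 CPM. Rod-like and cone-like cells stayed between 2.22 and 13.3 CPM, within the free-RNA range.

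An unnamed cluster of few cells, led by Crhbp, Optc and Best2, held Tgfb2 at the same height as Müller glia-like cells. Its 22, 46, 1 and 6 cells gave 516, 684, 264 and 902 CPM, from 150, 465, 5 and 67 UMIs. It also held Ltbp2 at 92.8, 156, 106 and 283 CPM and Ltbp1 at 340, 376, 476 and 215 CPM, so a ligand and both Ltbp genes were read in the same cluster. The aged values rest on 1 and 6 cells. Tgfb2 was also uneven among fibroblast-like clusters: cluster 22, led by Kera and Fmod, held 50.9, 51.7, 189 and 306 CPM, with both aged libraries above both young ones. Its age ratios were 3.71 (2.31 to 5.87) without lesions and 5.93 (4.37 to 8.08) after laser, from 30 and 55 aged cells.

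Among classes with at least 50 cells, only endothelial-like cells had a Tgfb2 ratio past 2-fold outside the free-RNA range. The 4 levels were 76.3, 57.9, 179 and 85.0 CPM, so the aged control stood above the other 3 libraries. It was 2.34 times (2.06 to 2.67) the young control, and the aged CNV level was 0.476 of it (0.410 to 0.551). Within cluster 8, led by Plvap and Cldn5 and the largest of the class, the levels were 90.8, 66.8, 183 and 86.0 CPM, with ratios of 2.01 (1.76 to 2.31) and 0.470 (0.403 to 0.547). The 2 lower endothelial clusters were unevenly filled: cluster 17, led by Fabp4 and Gpihbp1, had 20 cells in the aged control, and cluster 34, led by Esm1 and Stc1 beside Plvap, had 30 and 54 cells in the young libraries and none in the aged. With each cell thinned to 1000 UMIs the aged laser ratio was 0.602, and with classes taken from each cell's own markers 0.516, neither past 2-fold.

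Tgfb3 (chr12:86056743-86079041) encodes the third ligand, known from palate fusion and connective tissue. Most of its RNA was read in 1 class: fibroblast-like cells held 85.2% to 90.0% of its UMIs, at 209, 182, 356 and 231 CPM. Pericyte/smooth muscle-like cells came next with 119, 135, 152 and 101 CPM, skeletal muscle-like cells of the young CNV library held 45.1 CPM, and the other classes with at least 50 cells stayed at or below 25.1 CPM. No ratio past 2-fold was found in either of the 2 main classes. Among fibroblast-like clusters, Tgfb3 was highest in cluster 5 (300, 223, 531 and 373 CPM), cluster 12, led by Angptl7 and Matn4 (433, 405, 329 and 392 CPM), and cluster 22 (221, 276, 341 and 354 CPM). It was lowest in cluster 2, led by Dpt and Pi16, at 62.1, 114, 44.1 and 47.1 CPM, and in cluster 6, led by Pappa2 and Pgf, at 72.2 to 93.5 CPM.

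In the pericyte cluster, number 18, led by Rgs5, Kcnj8 and Higd1b, Tgfb3 was 34.7, 107, 49.6 and 30.5 CPM. The young CNV library stood alone, at 3.07 times (2.19 to 4.40) the young control, from 44 and 156 UMIs. A single cell held 48 of the 156, and with the top cell of each library left out the ratio was 2.49. Fibroblast markers in this cluster summed to 3820, 5720, 1590 and 2600 CPM, also highest in the young CNV library, and their part in the difference was not tested.

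**Figure D2:**
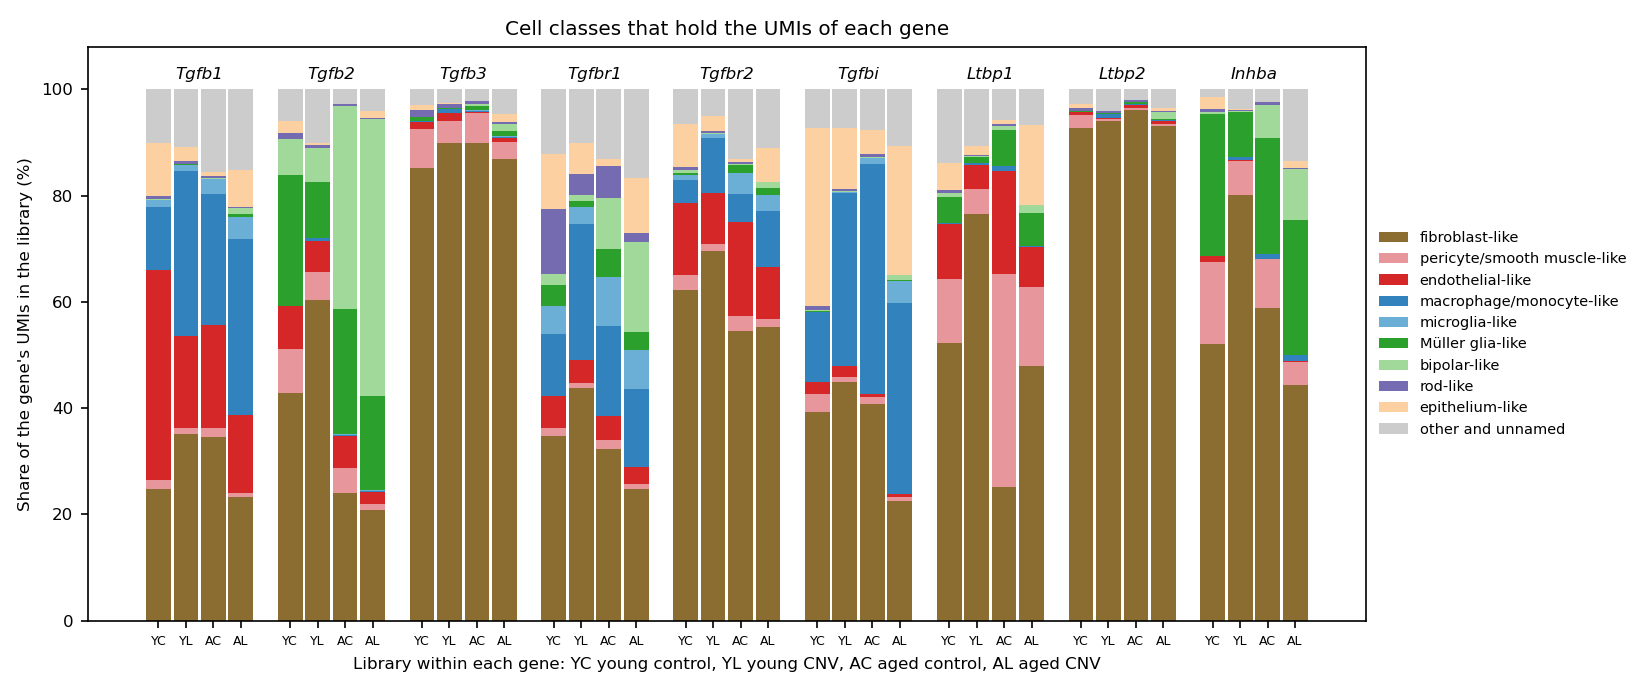
Share of the UMIs of each gene that each cell class held, in percent of the gene's UMIs in the library; 1 stacked bar per library, from 0 to 100%. Fibroblast-like cells held 85.2% to 90.0% of Tgfb3 and 92.8% to 96.1% of Ltbp2, while Tgfb2 in the aged libraries was mostly in bipolar-like and Müller glia-like cells.

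Tgfbr1 (chr4:47353222-47414926) encodes the type I receptor kinase. Its highest level was in microglia-like cells, the resident macrophages of the retina, which number only 13, 22, 26 and 38 and so fall under the class size of the 2-fold rule. The 4 levels were 2050, 502, 1310 and 450 CPM, from 241, 244, 413 and 431 UMIs. In CPM both CNV libraries were far below both controls, with a ratio of 0.245 (0.204 to 0.294) in the young pair and 0.344 (0.300 to 0.394) in the aged pair. The median microglia-like cell held 7921, 17565.5, 10070 and 23798 UMIs of all genes, more in both CNV libraries. All levels here are scaled to these totals, so they do not give the UMIs of a gene per cell. The part of the larger totals in the ratios was not tested. The lower level was seen across cells: the median cell held 15.9, 4.38, 13.1 and 4.24 Tgfbr1 UMIs per 10000, and the middle 50% of cells ran from 12.6 to 25.8 and from 7.48 to 24.0 in the controls, against 1.86 to 11.3 and 1.66 to 7.64 after laser.

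Tgfbr2 (chr9:116087695-116175363), the type II receptor that binds the ligand, was lower in CPM in the same libraries. Its levels were 764, 333, 777 and 340 CPM, and the laser ratios were 0.436 (0.335 to 0.570) in the young pair and 0.438 (0.370 to 0.519) in the aged pair. They rest on 90, 162, 245 and 326 Tgfbr2 UMIs in 13, 22, 26 and 38 cells. The cells of the CNV libraries held more UMIs of all genes, so a lower CPM does not show fewer Tgfbr2 UMIs per cell. The 2 controls differed from each other by a ratio of 1.02 and the 2 CNV libraries also by 1.02. For Tgfbi in the same cells the order was turned: 25.5, 67.8, 69.7 and 276 CPM, 3.95 times (2.56 to 6.41) higher after laser in aged mice and 2.66 times (0.836 to 13.6) in young mice, where the control had 3 UMIs. In the young CNV library 17 of 33 Tgfbi UMIs came from 1 cell, and without the top cells the young ratio was 1.94. Tgfb1 was 314, 175, 174 and 173 CPM, with only the young control apart.

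The microglia marker list was also lower after laser at both ages. Its 6 genes summed to 13900, 6060, 6180 and 3850 CPM, all 6 with UMIs in every library, while the 10 macrophage and monocyte markers summed to 4090, 3900, 4280 and 4210 CPM. The genes behind this level sum did not move alike. Csf1r was 2030, 1130, 960 and 920 CPM, Lyz2 611, 880, 1990 and 1790 CPM and Cd68 586, 837, 830 and 782 CPM. P2ry12, a purinergic receptor of resting microglia, was 1960, 380, 726 and 345 CPM and Tmem119, a microglial surface protein, 696, 255, 311 and 145 CPM. Ccr2, which marks blood-borne monocytes, was low, with 0, 1, 8 and 6 UMIs. Whether these cells are the same population before and after laser was not tested.

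**Figure D3:**
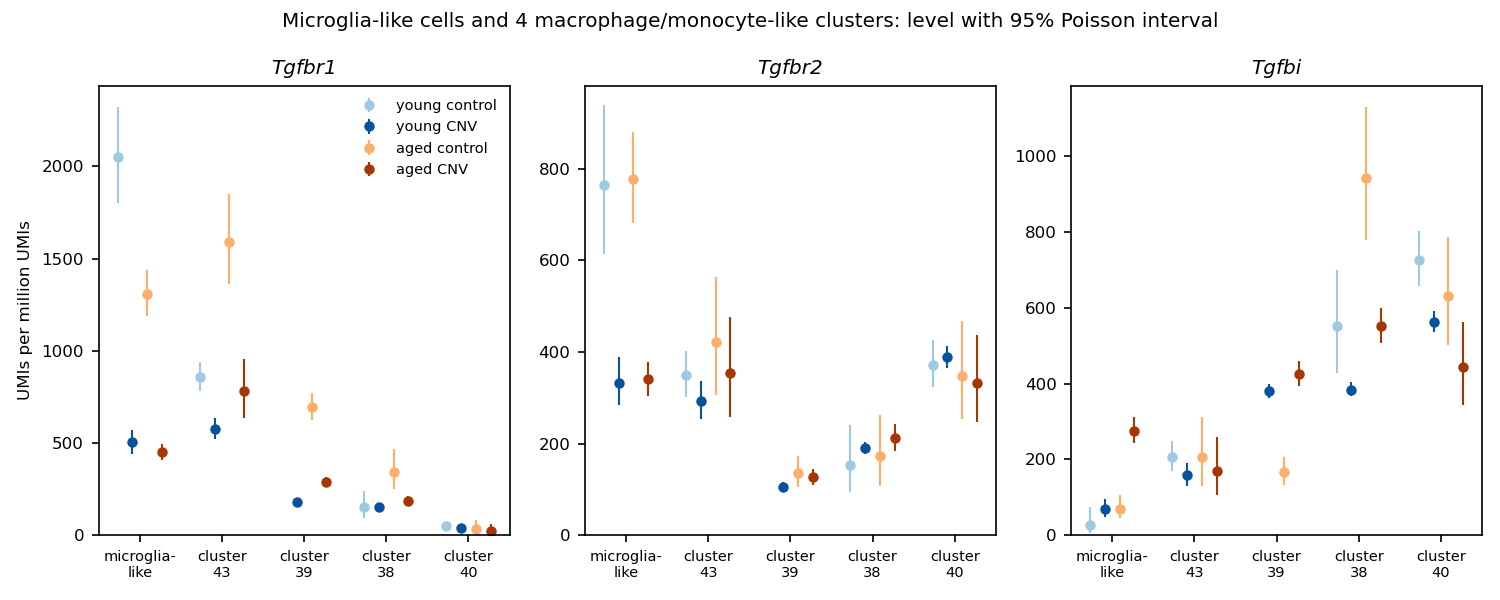
Level of Tgfbr1, Tgfbr2 and Tgfbi in microglia-like cells and in 4 macrophage/monocyte-like clusters, in CPM with 95% Poisson intervals, for the libraries with at least 10 cells; colours stand for the 4 libraries. Both receptors are lower in the CNV libraries in microglia-like cells, Tgfbr1 also in cluster 43 and, for the aged pair, cluster 39, and cluster 40 is low in Tgfbr1 in every library.

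In macrophage/monocyte-like cells Tgfbr1 was 346, 147, 392 and 180 CPM, again lower in both CNV libraries. The laser ratio was 0.426 (0.387 to 0.469) in the young pair and 0.460 (0.417 to 0.508) in the aged pair, and this was the only combination of gene and class that passed 2-fold in the same direction at both ages. The clusters of the class were not filled alike. Cluster 43, led by Ccl4, Ccl3 and Cd83, is the Tgfbr1-high cluster at 859, 577, 1590 and 782 CPM, and it made up 43% of the class in the young control but 7.41% in the young CNV library. Cluster 40, led by Cd163, Folr2 and Lyve1 (markers of tissue-resident macrophages), held 47.2, 38.4, 31.6 and 19.9 CPM. With the clusters weighted alike in both libraries, an alternative added after seeing the data, the young ratio was 0.726 and no longer past 2-fold, while the aged ratio was 0.484. The young value covers only the 3 clusters with enough cells in both libraries. It leaves out cluster 39, with 1 cell in the young control and 18.3% of the class in the young CNV library.

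Tgfbr1 was lower after laser within clusters 39 and 43 of the aged pair. In cluster 39, led by Spp1, Gpnmb and Mmp12, Tgfbr1 was 693 CPM in the aged control and 289 CPM in the aged CNV library, a ratio of 0.418 (0.362 to 0.481) over 42 and 133 cells. In cluster 43 the aged ratio was 0.491 (0.379 to 0.634), over 21 and 20 cells, and 0.579 with the top cell of each library left out, since 1 aged control cell held 53 of 170 UMIs. Without its top cells cluster 39 stayed at 0.415. Tgfbi in cluster 39 was higher, at 167 and 426 CPM (2.55 times, 2.03 to 3.24). Cluster 39 had 1 cell in the young control, so it allows no young comparison.

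Neutrophil-like cells, first responders at a burn, also carried Tgfbr1, but in an uneven way. The 3, 20, 28 and 205 cells gave 0, 501, 66.7 and 423 CPM. The high values came from cluster 42, led by Il1r2, Acod1 and Il1b, at 568 and 488 CPM in the CNV libraries, whereas cluster 56, led by Retnlg and Cxcr2, held 68.9 and 32.3 CPM in the aged pair. Cluster 42 had 1 cell in the aged control and 180 in the aged CNV library.

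In 4 further classes Tgfbr1 was lower than in macrophage/monocyte-like cells of the same library. Fibroblast-like cells held 78.7, 72.6, 130 and 102 CPM and Müller glia-like cells 69.3, 52.7, 84.2 and 62.5 CPM. Bipolar-like cells held 91.1, 68.5, 76.5 and 78.2 CPM, and rod-like cells 55.6, 49.5, 63.8 and 45.0 CPM. Rod-like cells were the lowest of the 4 in each library and the other 3 ranges overlapped, and none of the 4 classes had a ratio past 2-fold.

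For Tgfbr2 the largest pool was the fibroblast-like class, with 54.6% to 69.6% of its UMIs and 313, 370, 310 and 418 CPM. T-cell-like lymphocytes held 349, 299, 378 and 366 CPM and endothelial-like cells 225, 257, 418 and 309 CPM, so the 3 classes overlapped. Among fibroblast-like clusters it was highest in cluster 2 in every library, at 579, 521, 648 and 772 CPM, and 187 to 328 CPM in the other 4. Müller glia-like cells, rich in Tgfb2, were low in this receptor at 21.8, 20.1, 33.2 and 44.0 CPM, and the aged CNV level was 2.19 times (1.49 to 3.32) that of the young CNV library. Beside 418 CPM in fibroblast-like cells, the aged CNV level lay just above the free-RNA range. The young CNV level, beside 370 CPM, lay within it.

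Ltbp1 (chr17:75005480-75392512, plus strand) encodes a matrix protein that tethers the latent complex. In pericyte/smooth muscle-like cells, the contractile cells of vessel walls, it was 215, 209, 557 and 539 CPM. Both aged libraries were above both young ones, by 2.59 times (2.34 to 2.87) without lesions and 2.58 times (2.30 to 2.88) after laser, and no laser ratio passed 2-fold at either age. The smooth muscle cluster 16, led by Myh11, Pln and Acta2, showed the same order at 343, 351, 661 and 664 CPM, a smaller step that stays under 2-fold. Its median cell held 2.12, 2.41, 4.84 and 5.06 Ltbp1 UMIs per 10000. Cluster 16 made up 51.8% and 48.8% of the class in the young but 84.0% and 66.7% in the aged libraries, and with clusters weighted alike the 2 age ratios were 1.89 and 2.15. With classes taken from each cell's own markers they were 1.51 and 1.58, and neither passed 2-fold.

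The pericyte cluster 18 held Ltbp1 at 33.1, 59.4, 30.5 and 266 CPM. The aged CNV library stood apart, at 8.72 times (4.25 to 20.8) the aged control, where 34 cells gave 8 UMIs. In the aged CNV library 65 cells gave 96 UMIs. Markers of other cell types in this cluster were also higher in the aged CNV library than in the aged control: fibroblast markers at 2600 against 1590 CPM, macrophage and monocyte markers at 211 against 87.7 CPM and melanocyte markers at 1040 against 671 CPM. Smooth muscle markers were summed only together with pericyte markers, at 14600 CPM in the aged control and 14300 CPM in the aged CNV library. RNA from the smooth muscle cluster described above, which is high in Ltbp1, was therefore not read apart. The part of other cell types in the Ltbp1 values was not tested.

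In fibroblast-like cells Ltbp1 was 143, 220, 49.6 and 140 CPM, lowest in the aged control. The aged laser ratio was 2.83 (2.57 to 3.11) and the age ratio without lesions 0.346 (0.315 to 0.379). The gene was concentrated in cluster 2, at 410, 397, 335 and 386 CPM, while clusters 5 and 6 held 9.54 to 46.4 CPM. Cluster 2 made up 21.1%, 44.7%, 11.9% and 35.2% of the class, highest and lowest in the same libraries as the class level. With clusters weighted alike the aged laser ratio was 1.21 and the age ratio 0.670, neither past 2-fold. With classes from own markers the age ratio was 0.555. A different number of cluster 2 cells in the tissue and a different sampling of the tissue cannot be told apart here. In clusters with little Ltbp1 it was lower with age: cluster 5 held 32.8, 46.4, 9.54 and 24.1 CPM, with an age ratio of 0.291 (0.212 to 0.394) without lesions, and cluster 12 held 105, 111, 15.8 and 24.2 CPM, with age ratios of 0.150 (0.0792 to 0.259) without lesions and 0.218 (0.144 to 0.318) after laser.

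**Figure D4:**
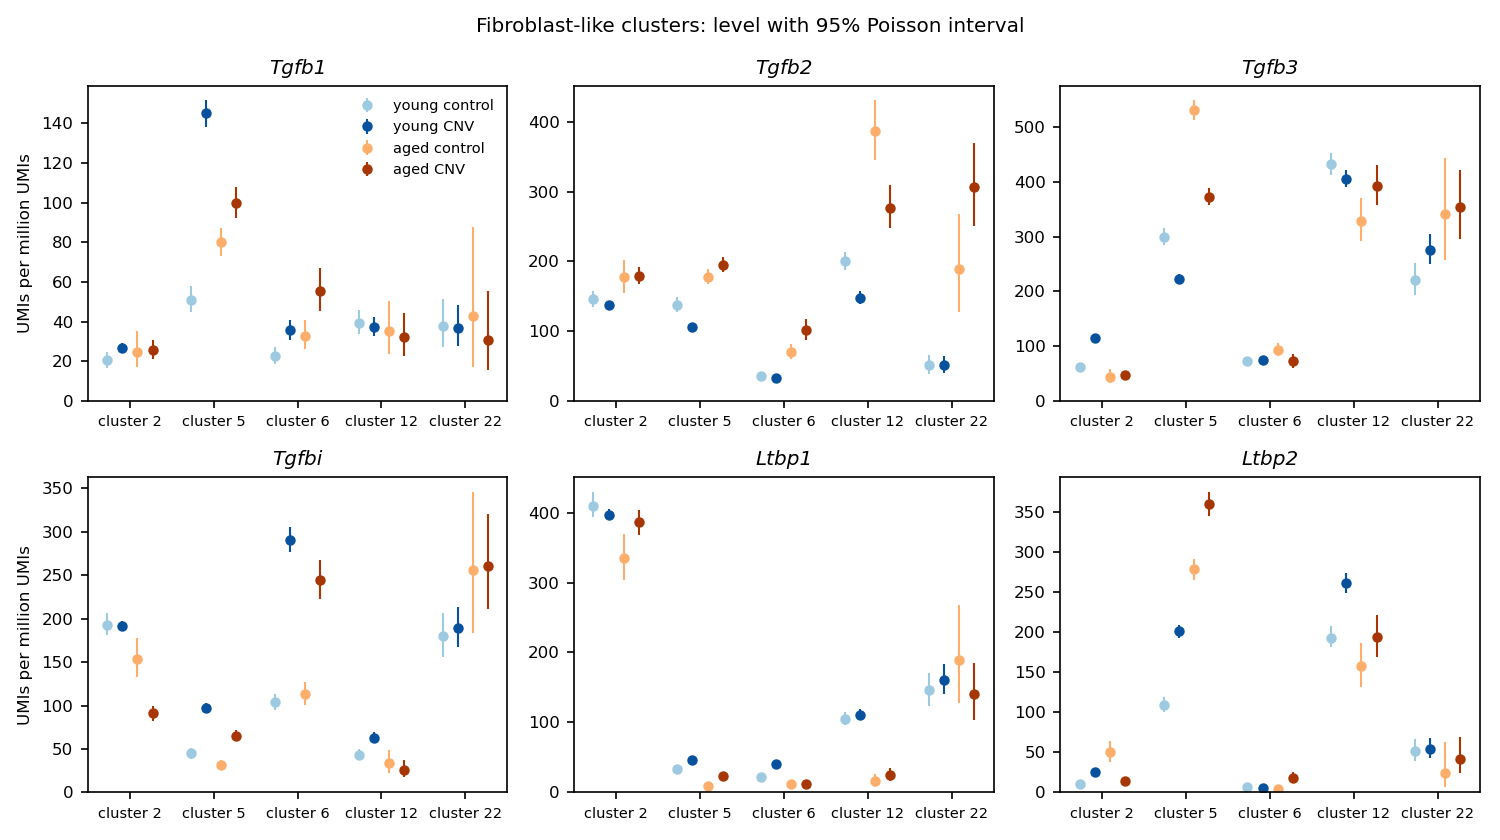
Level of 6 of the genes in the 5 fibroblast-like clusters, in CPM with 95% Poisson intervals; colours stand for the 4 libraries. Ltbp1 is high in cluster 2, Ltbp2 in clusters 5 and 12, and Tgfbi in cluster 6 is above 200 CPM in both CNV libraries and near 100 CPM in both controls.

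Ltbp2 (chr12:84783212-84876558, minus strand) encodes a relative of Ltbp1 that binds microfibrils but not the latent complex, and is linked to lens zonules and glaucoma. Fibroblast-like cells held 92.8% to 96.1% of its UMIs, at 74.4, 100, 175 and 184 CPM. The aged control was 2.36 times (2.20 to 2.52) the young control, and after laser the age ratio stayed within 2-fold. Cluster 5 held 109, 201, 278 and 359 CPM and cluster 12 held 193, 261, 157 and 194 CPM. Cluster 12 was the higher of the pair in both young libraries and cluster 5 in both aged libraries. The 4 intervals of cluster 5 did not overlap, but they cover counting error only. A single cell of cluster 5 held 134 Ltbp2 UMIs in the young CNV library and another 89 in the aged CNV library. Without the top cell of each library the levels were 105, 191, 272 and 349 CPM. Ltbp2 is among the 10 leading genes of cluster 5, although it was not used to cluster. Within cluster 5 the age ratio without lesions was 2.54 (2.30 to 2.81). Cluster 5 made up 20.5% of the class in the young control and 48.4% in the aged control, and with clusters weighted alike the class ratio was 1.87. In cluster 2 the ratio after laser was 2.52 (1.88 to 3.44) in young mice, from 10.0 to 25.3 CPM, and 0.292 (0.203 to 0.419) in aged mice, from 49.8 to 14.5 CPM. A single aged control cell held 36 of that library's 62 UMIs, and with top cells left out the ratios were 2.53 and 0.6, the aged one within 2-fold.

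Tgfbi (chr13:56609586-56639359) encodes keratoepithelin, an adhesive matrix protein named for its induction by TGF-beta and known for corneal dystrophies. Among classes with at least 50 cells in every library it was highest in macrophage/monocyte-like cells, at 457, 407, 419 and 474 CPM, a narrow range over the 4 libraries. Dendritic-like cells held 233, 249, 150 and 337 CPM and epithelium-like cells 161, 208, 117 and 171 CPM. Fibroblast-like cells held 103, 162, 68.3 and 98.9 CPM, each CNV library above its control but within 2-fold.

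Cluster 6, a fibroblast-like cluster led by Pappa2, Pgf and Edn3, showed the largest Tgfbi difference among fibroblasts at both ages. Its levels were 104, 291, 113 and 245 CPM, with both controls low and both CNV libraries high. The ratios were 2.80 (2.54 to 3.10) in the young pair and 2.16 (1.86 to 2.50) in the aged pair. A Tgfbi UMI was seen in 276 of 683, 411 of 686, 149 of 347 and 157 of 258 cells. Macrophage and monocyte markers in cluster 6 summed to 59.4, 269, 95.8 and 195 CPM, also higher in the CNV libraries, against 15600 to 20900 CPM in the macrophage/monocyte-like class itself. Cluster 5 followed the same order for Tgfbi at 44.8, 96.9, 32.1 and 65.2 CPM, by 2.16 times (1.87 to 2.52) and 2.03 times (1.71 to 2.41), whereas clusters 2, 12 and 22 had no laser ratio past 2-fold. In cluster 12 Tgfbi was 43.6, 62.8, 34.0 and 25.9 CPM, with laser ratios of 1.44 (1.21 to 1.72) in the young pair and 0.763 (0.440 to 1.32) in the aged pair.

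Schwann-like cells, the glia of peripheral nerve, held more Tgfbi UMIs after laser: 1, 78, 0 and 24 UMIs in 65, 131, 30 and 35 cells, or 2.51, 54.8, 0 and 87.1 CPM. The young ratio was 21.8 (3.8 to 872), and the aged level was 4.83 times the level that 3 UMIs would give in the control. The exact interval for 24 against 0 UMIs starts at a ratio of 3.63. A single aged CNV cell held 15 of the 24, and without it 9 UMIs were left and the interval starts at 1.26. Fibroblast markers in these cells summed to 3000, 3200, 457 and 3070 CPM, level in the young pair and higher after laser in the aged pair. Macrophage and monocyte markers summed to 100, 334, 60.1 and 90.7 CPM, higher after laser at both ages, and the 7 Schwann markers to 22300, 17400, 20200 and 6510 CPM, lower after laser at both ages. The part of either list in the Tgfbi values was not tested. In RPE-like cells Tgfbi was 1.44, 14.4, 2.50 and 3.10 CPM, within the free-RNA range in every library.

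Inhba (chr13:16004256-16031609, plus strand) encodes inhibin beta A, which forms activin A. Müller glia-like cells held 82.8, 71.5, 62.1 and 64.9 CPM and pericyte/smooth muscle-like cells 40.9, 28.9, 46.7 and 32.2 CPM, without a ratio past 2-fold. Fibroblast-like cells held 20.8, 22.9, 42.1 and 26.2 CPM, and the aged control was 2.02 times (1.77 to 2.31) the young control. This ratio lies at the threshold: with TMM scaling it was 1.84 and with clusters weighted alike 1.78. Cluster 22 was the highest fibroblast-like cluster at 86.0, 93.4, 104 and 53.4 CPM.

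In neutrophil-like cells Inhba was read in 1 library. The aged CNV library had 62 UMIs in 205 cells (95.6 CPM) and the other 3 had 0 UMIs in 3, 20 and 28 cells. Only 11 cells (5.37%) carried an Inhba UMI and 1 of them held 27, without which the level was 54.4 CPM. Macrophage/monocyte-like cells of the same library carried it in 9 of 521 cells (1.73%) at a median of 7798 UMIs per cell, against 3204 in the neutrophil-like cells. The level was 3.82 times the 25 CPM that a count of 0 allows in the aged control, with an exact interval that starts at a ratio of 3.02. Without the top cell these values were 2.18 and 1.68. The 2 libraries hold different neutrophil-like cells: cluster 56 made up 96.4% of them in the aged control and cluster 42 made up 87.8% in the aged CNV library.

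Across the classes with at least 50 cells, the members were counted against all genes by the same rule. After laser in young mice 21 of 82 measured combinations of gene and class were past 2-fold, 14 higher and 7 lower, against 10.4% of all genes and classes. In aged mice they numbered 17 of 70, 14 higher and 3 lower, against 9.0%. Of these, 12 in young and 14 in aged mice fell in the free-RNA range. Leaving out combinations under 0.1 of the highest class, 9 of 47 remained in young mice (background 6.49%) and 3 of 33 in aged mice (background 5.85%). The 3 aged ones are Ltbp1 in fibroblast-like, Tgfb2 in endothelial-like and Tgfbr1 in macrophage/monocyte-like cells, all described above.

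**Figure D5:**
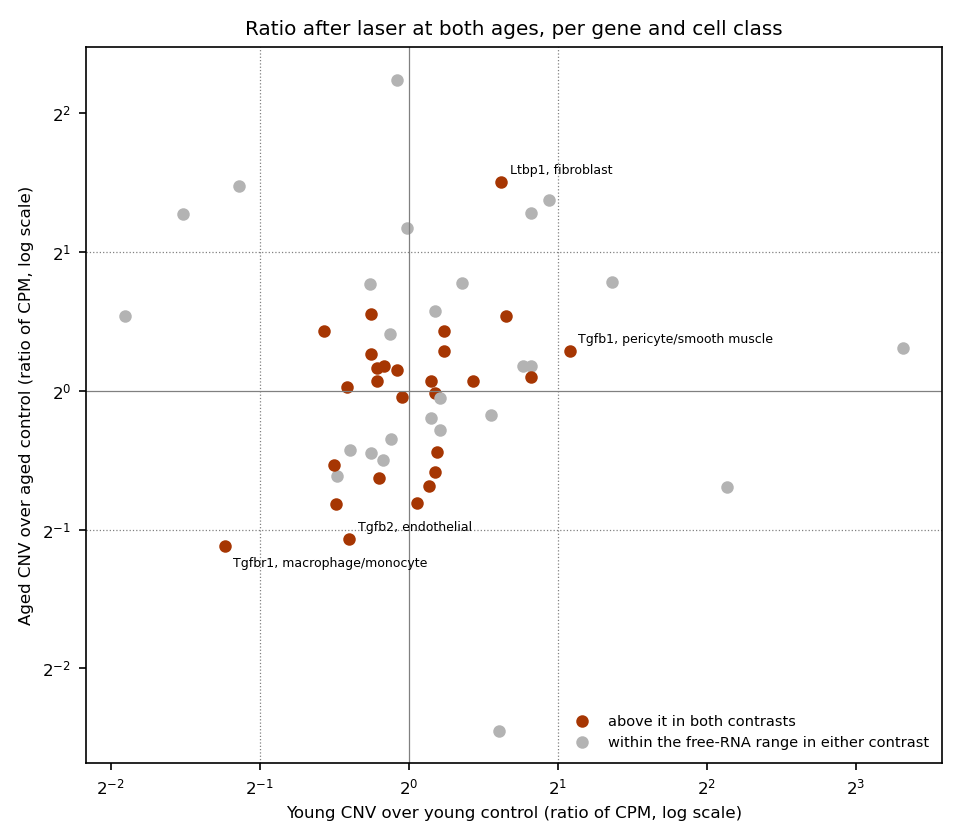
Ratio of CPM after laser in young mice (x axis) and aged mice (y axis), both on log scales, for the 53 combinations of gene and class measured at both ages; grey points lie within the free-RNA range in either contrast, and dotted lines mark 2-fold. Of the 27 points above that range, Tgfbr1 in macrophage/monocyte-like cells alone lies past 2-fold in the same direction on both axes.

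The young list of 9 also held values in thinly filled or mixed classes. In Schwann-like cells Ltbp1 was 25.1 and 61.8 CPM and Tgfb1 12.6 and 44.2 CPM in the young pair, and in melanocyte-like cells Tgfb1 was 22.7 and 47.8 CPM. In pericyte/smooth muscle-like cells Tgfb1 was 14.9 and 31.6 CPM, a ratio of 2.12 (1.47 to 3.08). With the top cell of each library left out the Tgfb1 ratio was 1.98 in melanocyte-like and 2.0 in pericyte/smooth muscle-like cells, at the threshold. Macrophage and monocyte markers in the young pair were also higher after laser, at 48.7 and 269 CPM in pericyte/smooth muscle-like, 100 and 334 CPM in Schwann-like and 198 and 292 CPM in melanocyte-like cells, and their part in the Tgfb1 values was not tested. Ltbp2 there was 12.3 and 4.32 CPM, and with the top cell of each library left out 7.53 and 3.68 CPM. Bipolar-like cells of the young control held Ltbp1 at 44.0 CPM and Tgfbr2 at 42.0 CPM, against 11.8 and 19.1 CPM after laser and 3.40 and 3.04 CPM in the aged control. A single young control cell held 29 of the 44 Ltbp1 UMIs, and with top cells left out the young laser ratio for Ltbp1 went from 0.267 to 0.577, within 2-fold. Fibroblast markers in bipolar-like cells summed to 2820, 1240, 67.7 and 182 CPM, in the same order over the 4 libraries as both genes. Rod markers in the class summed to 5370, 1320, 317 and 360 CPM. Cluster 21, led by Lrp1b and Neto1, held 218, 52, 49 and 39 of the 306, 203, 537 and 1443 cells of this class. Its median cell had 1450.5 UMIs. The part of the markers and of the cluster make-up in both genes was not tested.

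With age, the combinations past 2-fold numbered 21 of 61 without lesions (10 higher, 11 lower, against 15.9% of all genes and classes) and 23 of 84 after laser (13 higher, 10 lower, against 17.5%). Above the free-RNA range they were 11 of 31 without lesions (background 12.7%) and 3 of 43 after laser (background 13.5%). Without lesions the 11 include Tgfb2 in endothelial-like, Ltbp2 and Inhba in fibroblast-like and Ltbp1 in pericyte/smooth muscle-like cells, all higher in the aged control. Ltbp1 was lower in Müller glia-like cells, at 106 and 52.4 CPM (0.494, 0.402 to 0.606), and Tgfbi lower in pericyte/smooth muscle-like cells, at 57.4 and 17.0 CPM (0.296, 0.190 to 0.446). Fibroblast markers were lower as well, at 330 and 74.2 CPM in Müller glia-like and 2620 and 526 CPM in pericyte/smooth muscle-like cells, and their part in both differences was not tested. After laser the 3 are Ltbp1 in pericyte/smooth muscle-like cells, Tgfbr2 in Müller glia-like cells and Ltbp1 in epithelium-like cells, at 24.7 and 70.5 CPM (2.85, 2.45 to 3.33). In epithelium-like cells only the aged CNV library stood apart for Ltbp1, at 3.21 times (1.96 to 5.65) the aged control. Between the controls the age ratio was 0.848 (0.478 to 1.4). The aged control held 16 Ltbp1 UMIs in 30 of these cells, under the class size of the 2-fold rule. The Tgfbr2 level in Müller glia-like cells lay just above the free-RNA range. Each library enters both a laser and an age comparison, so the 4 sets of ratios are not independent.

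The wider pathway was read from a list of 58 genes in 6 roles: other ligands, other receptors, latency and activation, SMADs, inhibitors and often used target genes. In fibroblast-like cells 5 of 56 measured list genes were higher and 0 lower after laser in young mice, against 11% of all genes past 2-fold, and the list median was 0.00 on the log2 scale beside -0.09 over all genes. Postn, which encodes the matrix protein periostin, was 362 and 1470 CPM (4.06 times, 3.97 to 4.16) and Fn1, fibronectin, 532 and 1890 CPM (3.55 times, 3.48 to 3.62). Cdkn2b, a cell cycle inhibitor, was 0.595 and 12.4 CPM (20.9 times, 11.9 to 40.7). In aged mice 2 were higher and 2 lower of 55 (background 9.52%), with Postn at 160 and 339 CPM, the ligand Bmp4 at 9.07 and 19.5 CPM, Id1, a target of the BMP branch, at 227 and 80.9 CPM, and Ccn2, connective tissue growth factor, at 2030 and 918 CPM. With clusters weighted alike the aged ratios of Postn (1.57), Bmp4 (1.30) and Ccn2 (0.570) were within 2-fold, that of Id1 was 0.455, and the young ratio of Postn was 2.64.

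Thbs1, which encodes thrombospondin 1, an activator of latent TGF-beta, ranked first among list genes that were higher after laser and above the free-RNA range in macrophage/monocyte-like cells at both ages. It was 17.6 and 225 CPM in young mice (12.8 times, 8.79 to 19.5) and 113 and 472 CPM in aged mice (4.16 times, 3.62 to 4.80). The class was filled by different clusters in the young pair: cluster 38, led by Ms4a4c, H2-Aa and Aif1, went from 6.98% to 37.6% and cluster 39 from 0.581% to 18.3%, beside the lower share of cluster 43. With clusters weighted alike the Thbs1 ratios were 5.50 in young mice, over the 3 clusters with enough cells, and 6.65 in aged mice. The list had 9 genes higher and 3 lower of 43 in young mice (background 14.8%) and 5 higher and 2 lower of 41 in aged mice (background 12%). In endothelial-like cells 7 were higher and 2 lower of 53 in young mice (background 9.26%) and 6 higher and 1 lower of 48 in aged mice (background 9.41%).

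Pericyte/smooth muscle-like cells had 3 higher and 2 lower of 51 list genes in young mice (background 6.98%) and 5 higher and 3 lower of 47 in aged mice (background 9.23%). Fn1 there was 63.9 and 227 CPM in young (3.55 times, 3.03 to 4.18) and 29.0 and 116 CPM in aged mice (3.99 times, 2.84 to 5.71). Fibroblast markers in this class summed to 2620, 4690, 526 and 1740 CPM, also higher after laser at both ages, and their part in the Fn1 values was not tested. In Müller glia-like cells 3 were higher and 1 lower of 39 in young mice (background 7.99%) and 10 higher and 0 lower of 44 in aged mice (background 10.6%), of which Id1 alone was above the free-RNA range, at 65.3 and 151 CPM (2.31 times, 1.94 to 2.75). With age and without lesions, 4 list genes were higher and 7 lower of 55 in fibroblast-like cells (background 14.0%). Thbs1, one of the 10 leading genes of cluster 5, was at 442 and 1420 CPM there (3.21 times, 3.13 to 3.30), and 2.22 times with clusters weighted alike. Cluster 5 made up 20.5% of the class in the young control and 48.4% in the aged control. Ltbp4, a further latent TGF-beta binding protein, was at 405 and 159 CPM (0.391, 0.371 to 0.412). The list medians in macrophage, endothelial, pericyte and Müller classes lay between -0.15 and 0.19 for both laser comparisons, beside -0.11 to 0.03 over all genes.

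Over 54 combinations of class and library from 18 classes, the genes whose log2 levels followed 8 of the members most closely were described by Pearson's r. The classes share libraries, depth and neighbouring cells, so r is a description only. Tgfb1 was closest to Lgals9 (r = 0.94), Tgfb3 to C1qtnf7 (0.92) and Tgfbr2 to Ahnak (0.94). Ltbp1 was closest to Rbfox2 (0.91), Ltbp2 to Itgbl1 (0.93) and Tgfbi to Ifi204 (0.90), while Tgfbr1 and Inhba had weaker best matches, Arid3a (0.85) and Acss3 (0.82). Among the members themselves the closest pairs were Tgfb1 with Tgfbr2 (0.88), Tgfb3 with Ltbp2 (0.82) and Tgfb3 with Ltbp1 (0.73), and Tgfb1 with Tgfb2 was -0.20.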

How the data were processed

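The deposited values were a single table of raw UMI counts, with 24783 genes down and 36701 cells across, whose prefix gives the library. The prefixes beginning with y and e were read as young and aged. Per the submitters' processing notes, Cell Ranger, Seurat 4.1.1 and mm10 were used.

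Cells with a Scrublet score of at least 0.2 were removed (245 to 303 per library), which left 35601. They were grouped into 63 clusters with scanpy 1.11.5 and leidenalg 0.10.2, leaving the 9 genes out of the variable genes. Clusters were named by at least 3 markers, with thresholds set after seeing the cluster table, and 9 clusters (1.69% to 4.14% of cells per library) stayed unnamed. UMIs were summed per class or cluster and library and scaled by the total UMIs of that class. Members, marker lists and the pathway list were chosen with earlier results of these data known, and the clusters described were picked after their values were seen. Of the pathway list, up to 3 genes per direction past 2-fold, by the interval bound nearest 1 and outside the free-RNA range, could be named, and some of these are. The 3 genes closest to each member were computed and the first is named for 8 members; 2 results on single genes are not reported here.

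Alternatives were TMM (edgeR 4.0.16), median-of-ratios scaling, cells thinned to 1000 UMIs, no doublet removal, classes from each cell's own markers, and other count minimums. Equal cluster weights and leaving out the cell with the most UMIs were added after seeing the data. The ratio calculation was tested on simulated data.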

Additional observations from a re-analysis of the deposited data

Results flagged for a closer look

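Ratios after laser that lay past 2-fold in opposite directions at the 2 ages were found in 4 places, and in none of them was the difference between the ages tested. Ltbp2 in pericyte/smooth muscle-like cells had a ratio of 0.350 in young and 2.42 in aged mice, and in their cluster 16 the ratios were 0.309 and 3.36. In the aged CNV library 12 of the 14 Ltbp2 UMIs of this class came from 1 cell. With the cell of most UMIs left out of each library the class ratios were 0.489 and 0.559 and the cluster ratios 0.408 and 0.857, so the opposite direction was no longer there. Ltbp2 in fibroblast-like cluster 2 had ratios of 2.52 and 0.292, which became 2.53 and 0.6 without those cells, the aged one within 2-fold. Tgfbr2 in bipolar-like cells had ratios of 0.455 and 2.78, and 0.375 and 2.86 without the top cells. The aged Tgfbr2 values lie in the free-RNA range, and fibroblast markers in bipolar-like cells were 2820, 1240, 67.7 and 182 CPM, in the same order as Tgfbr2 over the 4 libraries. The class was also filled by different clusters: cluster 21 held 218, 52, 49 and 39 of its 306, 203, 537 and 1443 cells. The part of the markers and of the cluster make-up in the Tgfbr2 values was not tested.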

How the results depend on the processing

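The counts of combinations past 2-fold were 21 (young laser), 17 (aged laser), 21 (age without lesions) and 23 (age after laser). With cells thinned to 1000 UMIs they were 11, 4, 10 and 10. With a minimum of 1 UMI the laser counts were 36 and 26, and with a minimum of 50 UMIs the aged laser count was 8 and the count for age after laser 14. With classes from each cell's own markers the aged laser count was 30. Fewer combinations reach 20 UMIs after thinning or at a minimum of 50, and for the own-marker classes the cause was not tested. With TMM scaling 79 of 82 calls stayed past 2-fold, without doublet removal 64 of 82 with clusters weighted alike 64 of 80 and with own-marker classes 55 of 77. Without doublet removal the direction reversed for Tgfb2 in RPE-like (0.719) and Tgfbr2 in bipolar-like cells (1.12) with age after laser, Tgfb3 in bipolar-like cells with age without lesions (1.03) and Ltbp2 in bipolar-like cells after aged laser (0.858). With own-marker classes it reversed for Ltbp2 in endothelial-like cells with age after laser (0.979), Tgfb2 in macrophage/monocyte-like cells after young laser (0.846), and Ltbp2 in pericyte/smooth muscle-like cells with age without lesions (4.06) and after young laser (1.33). With clusters weighted alike it reversed for Tgfb3 in endothelial-like cells with age without lesions (1.22), and for Tgfb1 (2.98) and Tgfbi (2.70) in rod-like cells with age after laser. The cause was not tested. Scaling by TMM shifted the median of all genes by -0.37 to 0.59 on the log2 scale. No paired analysis was possible because each group holds 1 library. Classes under 50 cells, microglia-like among them, limit what the counts cover.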
